A study of Homo sapiens with 15 samples.

Results

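The 18S gene encodes the RNA of the small ribosomal subunit and lies in the ribosomal DNA repeat between the 5' external transcribed spacer and internal transcribed spacer 1. Its cytosines were taken from position 3657 to position 5527 of the repeat's GenBank reference, counted from the first transcribed base. A cytosine was a member when at least 10 reads showed C or T there in at least 2 libraries of each group. This rule uses read depth and position, and no methylation value. It kept 296 cytosines in 18S, of the 2476 that passed the same read rule in the whole repeat, and 84 of the 296 stand in CpG, of 1022 CpG sites in the whole repeat. The other 212 stand in CHG or CHH context (H is any base but G), where cells of this kind carry little methylation. C in the reads there was therefore taken as a measure of incomplete conversion, and other sources of it were not tested. Members fell into a 5' part below position 4700, with 31 CpG sites from 4135 to 4507, and a 3' part with 53 CpG sites from 4819 to 5514. A further 36 CpG sites of 18S were listed in at least 1 library and were not members, 32 of them in the 5' part. No member lay before position 4109 or between positions 4512 and 4819, so those stretches of the gene are not described here.

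All libraries came from 1 human lymphoblastoid line, that is, cultured B lymphocytes immortalised with Epstein-Barr virus. Control libraries (n = 6) stand for cells before the onset of exposure, per the series' design text, and exposed cells received 5 µM hexavalent chromium, a genotoxic oxidised form of the metal, for 24 hours. Exposed libraries were labelled 3, 7 and 14 days after the onset (n = 3 each), and the question was how methylation differed from control at each day. Controls carry replicate numbers 1 to 3 in 2 sets, called first and second here, and both sets formed 1 control group. By the numbers in the titles, the first set comes before the day 3 libraries and the second between those of days 3 and 7. What sets them apart is not given. Bisulfite converts unmethylated cytosine to uracil, which is sequenced as T, while methylated cytosine resists it, and the treated DNA was amplified with a panel of primers. Methylation of a CpG site is the share of C among its C and T reads, in percent, and a difference between groups is given in percentage points.

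Ribosomal DNA is present in many tandem copies, of which a part is silent and heavily methylated while another part is transcribed and little methylated. A methylation level between both extremes is therefore an average over copies and cells, and these data cannot tell a change in many copies from a change in the copies that were amplified. Methylation of the promoter is the best known mark of silent copies, and the coding part studied here is methylated along with it in silenced units. RefSeq names 5 copies of the 18S gene, RNA18SN1 to RNA18SN5, each 1869 bases long, of which 3 are placed on chromosome 21 and 1 on chromosome 22. The span used here has 1871 bases, is exonic throughout and holds no UTR, since the 18S RNA is not translated.

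Summed over the repeat, a library held 28716783 to 95852393 reads of C or T at cytosines, and 18S held 15.7% to 39.8% of the CpG reads of a library. The median depth at CpG members was 368 to 2984 reads per library in the 5' part and 41353 to 165848 reads in the 3' part. In the 5' part it was 1602 to 1924 reads in the first control set and 368 to 438 in the second. Depth within the 5' part was uneven: the minimum over libraries was 72 reads at the 16 sites from 4241 to 4406 and 2584 at the 6 sites before and 9 sites after them. PCR products were read with no molecular identifiers, so reads can be copies of 1 molecule and depth limits the counting error only. Neighbouring CpG sites were read on the same fragments, so the sites of a stretch are not independent measurements, and groups are compared over libraries. Whether replicates were separate cultures is not given, and p-values therefore rest on a spread between libraries that may be technical.

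The 5' part of 18S was far more methylated at days 7 and 14 than in controls, while day 3 lay within their range. In controls, the mean over its 31 CpG sites ranged from 42.5% to 53.0% with a median of 45.9% (46.5% ± 3.58, SD, n = 6). At day 3 the 3 libraries were at 45.6%, 45.8% and 50.6% (47.3% ± 2.85, SD, n = 3), within the range of the controls. The day 7 libraries read 83.2%, 78.9% and 71.0% (77.7% ± 6.20, SD, n = 3). The day 14 libraries read 75.8%, 70.2% and 84.7% (76.9% ± 7.31, SD, n = 3). Each of the 6 libraries of days 7 and 14 lay above every control and every day 3 library. The first set of controls averaged 47.1% ± 5.41 and the second 45.8% ± 1.26 (SD, n = 3 each), with overlapping ranges.

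The 5' part of 18S rose by 31.3 points at day 7 (SE 3.02, limma adjusted p = 8.31e-09 over 8 parts of the repeat) and by 30.5 points at day 14 (limma adjusted p = 1.30e-08). The difference was 0.88 points at day 3 (limma adjusted p = 0.885) and -0.79 points between days 14 and 7 (limma adjusted p = 0.823). The two-sided exact permutation test over libraries gave its smallest possible p, 0.0238, at both later days, and 0.0714 after adjustment over 6 comparisons, which misses the threshold of 0.05. Leaving out any 1 library kept the rise between 28.5 and 34.6 points at day 7 and between 26.6 and 33.8 points at day 14.

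The 3' part had similar control levels and smaller differences. Its mean over 53 CpG sites ranged from 37.5% to 43.3% in controls with a median of 39.8% (39.99% ± 2.06, SD, n = 6) and was 39.8%, 41.4% and 42.6% in the libraries of day 3. The day 7 libraries read 46.0%, 48.0% and 38.8% (44.3% ± 4.86, SD, n = 3). The day 14 libraries read 40.1%, 43.7% and 53.7% (45.8% ± 7.05, SD, n = 3). Replicate 3 of day 7 and replicate 1 of day 14 lay inside the range of the controls, and the other 4 libraries above it. The difference from control was 1.29 points at day 3 (limma adjusted p = 0.885), 4.30 points at day 7 (SE 2.63, limma adjusted p = 0.184) and 5.82 points at day 14 (limma adjusted p = 0.0543), and none passed. Single libraries decided this: without replicate 3 of day 7 the day 7 difference was 7.05 points and passed (limma adjusted p = 0.0246), and without replicate 3 of day 14 the day 14 difference was 1.89 points, against 8.68 points without replicate 1 of day 14 (limma adjusted p = 0.00844). The day 7 difference was 2.43 points without replicate 2 of day 7. The day 14 difference also passed without replicate 3 of the second control set (6.49 points, limma adjusted p = 0.0452) and, at the same 5.82 points, without replicate 3 of day 7 (limma adjusted p = 0.0320). The control sets did not overlap in the 3' part, with 37.5% to 39.8% in the first and 39.9% to 43.3% in the second. Against the second set alone the differences were 2.85 points at day 7 and 4.37 points at day 14, and against the first set alone 5.75 and 7.28 points, and none of these passed (limma adjusted p = 0.0744 to 0.392).

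**Figure D1:**
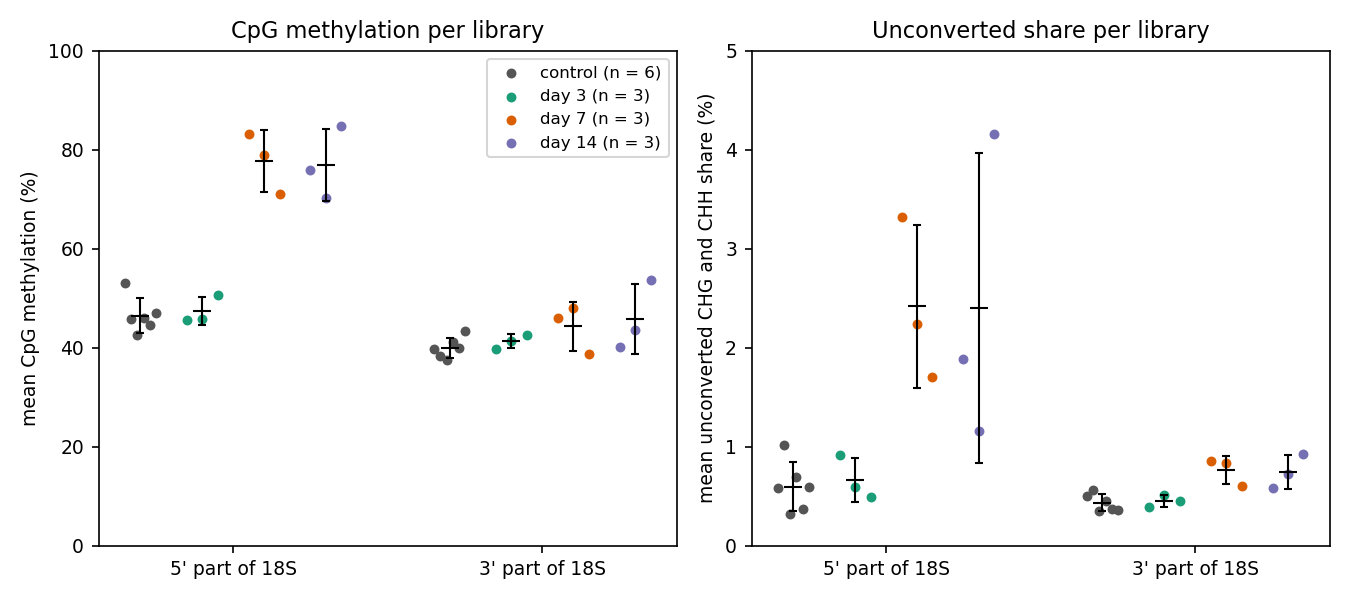
Mean CpG methylation (left, %) and mean unconverted share of CHG and CHH cytosines (right, %) of the 5' and 3' parts of 18S. Each point is 1 library, and the bars give mean and SD of control (n = 6) and days 3, 7 and 14 (n = 3 each). In the 5' part the 6 libraries of days 7 and 14 lie between 70.2% and 84.7% methylation, above all 9 others, while in the 3' part the groups overlap.

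The gap between both parts was measured within each library, which cancels a shift shared by the whole gene. The 5' part exceeded the 3' part by 6.48 ± 3.54 points in controls (SD, n = 6) and by 6.07 ± 1.84 points at day 3 (SD, n = 3). The day 7 libraries showed gaps of 37.2, 30.9 and 32.2 points and the day 14 libraries 35.8, 26.6 and 31.03 points, all above the other 9 libraries. The gap widened by 27.0 points at day 7 and by 24.6 points at day 14 (two-sided exact permutation p = 0.0238, the smallest possible, and 0.0357 after adjustment over 3 days). At day 3 it differed by -0.41 points (two-sided exact permutation p = 0.952).

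Within the 5' part every CpG site took part in the rise. All 31 sites were called higher than control at day 7 and again at day 14 by the quasi-likelihood test of edgeR, with highest adjusted p of 0.000388 and 0.000327. Over the 851 CpG sites tested in the repeat the share called higher was 22.3% at day 7 and 24.9% at day 14, while 41.8% and 46.1% were called lower. The median difference of the 31 sites was 31.9 points at day 7 and 30.5 points at day 14, against -5.30 and -5.52 points over all 851 sites. At each of the 31 sites all 3 libraries of day 7, and all 3 of day 14, lay above every control. The share of the 851 sites with that pattern was 18.9% at day 7 and 22% at day 14. Between days 14 and 7 no site of the 5' part was called by edgeR, also at an unadjusted p under 0.05 (13.9% of the 851 sites were called higher and 4.7% lower in that comparison), and limma called 0 as well. At day 3 the count was likewise 0 of 31, also at an unadjusted p under 0.05 and by limma, and 0% of all sites were called by edgeR.

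**Figure D2:**
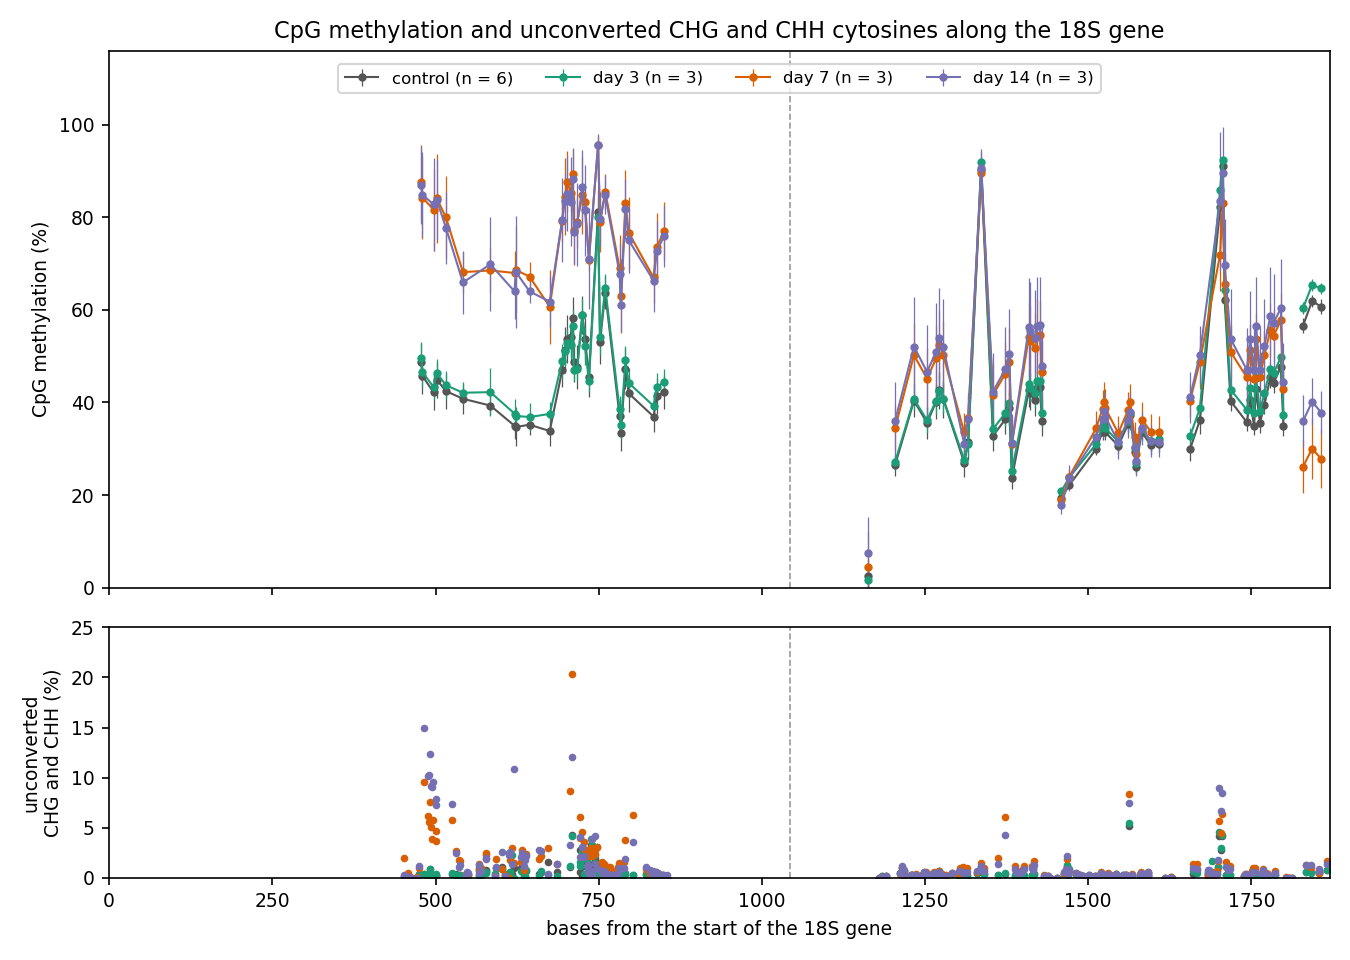
CpG methylation (top, %, mean and SD of each group) and unconverted share of CHG and CHH cytosines (bottom, %, group means) against the distance in bases from the start of the 18S gene. Lines join CpG sites of a stretch, and the dashed line is the limit between the 5' and the 3' part. Days 7 and 14 stand above control and day 3 over the whole 5' part, and below them at the last 3 sites, which averaged 59.7% in controls and 27.98% at day 7.

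The first sites of the 5' part showed the largest rises. Position 4154, 497 bases into the gene, was read at 37.5% to 48.9% in controls with a mean of 42.2%. Its methylation was 88.5%, 84.8% and 71.7% in the libraries of day 7 and 81.9%, 73.3% and 93.2% in those of day 14. It rose by 39.5 and 40.6 points (edgeR adjusted p = 3.47e-05 and 2.30e-05), on at least 6119 reads in every library. Position 4159 rose by 39.2 and 38.9 points. Positions 4135 and 4137, the first CpG members of the gene, rose by 38.8 and 38.6 points at day 7 and by 38.2 and 39.2 points at day 14. At these 4 sites no library of days 7 or 14 was below 71.7%, and no control was above 55.8%.

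The sites with the highest and lowest control level rose as well. Position 4406 had the highest control mean of the 5' part, at 81.2% ± 4.79 (SD, n = 6), and reached 95.6% ± 2.00 at day 7 and 95.6% ± 2.49 at day 14 (SD, n = 3). Its 14.4 points at both days were the smallest rise of the part in points, and on the log2 scale of methylated over unmethylated reads its change of 2.41 at day 7 exceeded the 1.78 of position 4441. Position 4441 had the lowest control mean, 33.5% ± 3.87, and reached 63.0% ± 7.96 at day 7 and 61.03% ± 5.86 at day 14. Position 4507, the last CpG member before the gap in coverage, went from 42.2% ± 3.64 in controls to 77.0% ± 6.42 at day 7 and 75.9% ± 6.58 at day 14.

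Site means of the 5' part ran from 33.5% to 81.2% in controls, from 60.7% to 95.6% at day 7 and from 61.03% to 95.6% at day 14. By unadjusted p, the lowest 2 sites at day 3 were 4332, at 37.5% ± 2.65 against 33.8% ± 3.29 in controls, and 4278, at 37.6% ± 3.12 against 35.0% ± 2.91 (edgeR adjusted p = 0.945 for both).

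Unconverted CHG and CHH cytosines moved with the rise of the 5' part. Their mean share over 86 cytosines was 0.596% ± 0.251 in controls (SD, n = 6) and 0.668% ± 0.223 at day 3 (SD, n = 3). The libraries of day 7 were at 3.32%, 2.24% and 1.70%, and those of day 14 at 1.88%, 1.16% and 4.16%, all above the highest control at 1.02%. The share was higher by 1.82 points at day 7 and by 1.81 points at day 14 (two-sided exact permutation p = 0.0238, the smallest possible, and 0.0357 after adjustment over 6 comparisons). Among the 6 libraries of days 7 and 14 the order by unconverted share was the same as the order by CpG methylation of the 5' part, from 70.2% methylation with 1.16% unconverted to 84.7% with 4.16%. At day 7, 39 of the 86 cytosines were above 2% and 11 above 5%, against 4 and 0 in controls.

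The higher share was spread over the 5' part: the median of the 86 cytosines was 0.319% in controls, 1.70% at day 7 and 1.10% at day 14, and 58 of them were above 1% at day 7 against 13 in controls. Position 4366, a CHG cytosine, had the highest share at day 7, with 20.6%, 19.7% and 20.6% in the libraries and 4.29% ± 0.958 in controls (SD, n = 6). Position 4139, a CHH cytosine next to the first CpG members, was at 9.54% ± 4.98 at day 7 and at 10.1%, 3.46% and 31.3% in the libraries of day 14, against 0.356% ± 0.0625 in controls. The 3' end of the 5' part held lower shares: its 23 CHG and CHH cytosines after position 4406 averaged 0.259% ± 0.125 in controls, 1.22% ± 0.404 at day 7 and 0.708% ± 0.229 at day 14.

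The rise in CpG methylation was present in all 3 windows of the 5' part, which were set by read depth after the depths were seen. The first 6 CpG sites went from 44.1% ± 3.77 in controls to 81.0% ± 8.14 at day 7 and 80.4% ± 8.48 at day 14, next to 29 CHG and CHH cytosines at 0.296%, 2.63% and 3.87% unconverted. The middle 16 sites went from 48.7% ± 3.57 to 78.1% ± 5.32 and 77.4% ± 7.58, next to 1.10%, 3.06% and 2.30%. The last 9 sites went from 44.1% ± 3.88 to 74.9% at day 7 and 73.9% ± 6.16 at day 14. In this last window a day 14 library with 0.444% unconverted, below the highest control at 0.489%, was methylated at 67.7%, and that control at 43.6%.

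Across the 31 sites, which share libraries and fragments, the change of the local unconverted share and the change of methylation correlated at Pearson's r = 0.058 at day 7 and 0.556 at day 14, given as descriptions. Across the 52 tested sites of the 3' part, which share libraries in the same way, the values were -0.872 and -0.775. There the local windows of the sites from position 5436 on reach past the gene end, into the spacer. The local unconverted share was also removed from each CpG value, using the CHG and CHH cytosines within 100 bp in the same library. The rise of the 5' part was then 31.1 points at day 7 and 30.4 points at day 14 (limma adjusted p = 1.09e-08 and 2.33e-08), and limma still called all 31 sites higher at both days. In the 3' part the differences became 3.10 and 5.03 points (limma adjusted p = 0.274 and 0.101). These averages include the sites from position 5436 on, where the share removed came partly from spacer cytosines. At the last CpG site of the gene the removal made a fall larger, as described below. How much of the change in the 3' averages came from such sites was not tested, so it is no measure of conversion within the gene. In the 3' part limma called 31 sites higher and 3 lower at day 7, against 27 and 3 on percent with no share removed. This step assumes that unmethylated CpG sites escape conversion at the rate of their neighbours, which was not tested.

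**Figure D3:**
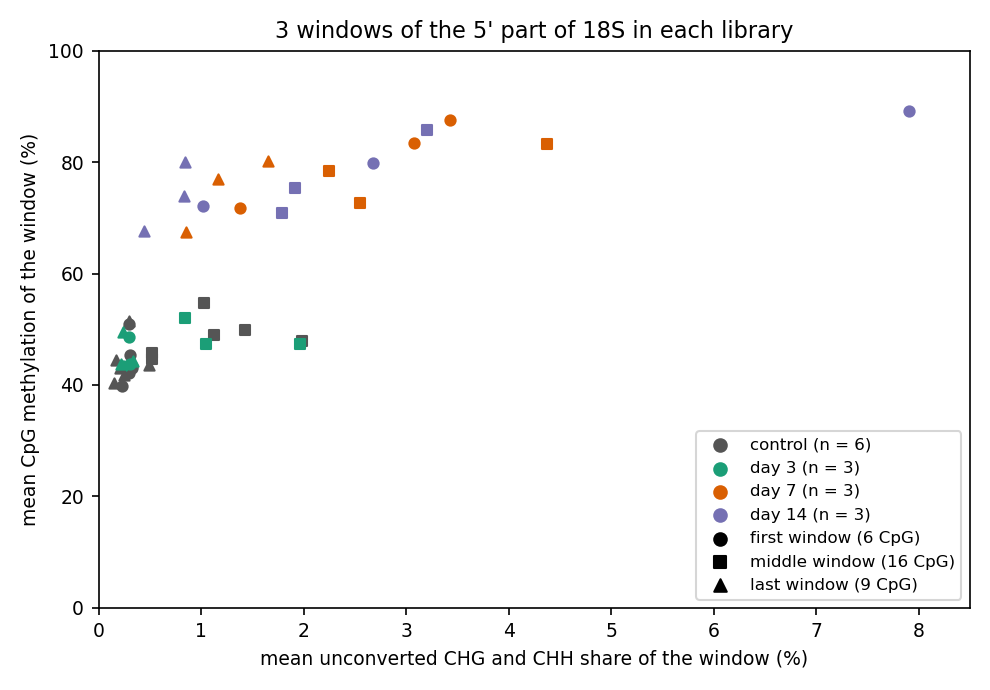
Mean CpG methylation (vertical axis, %) against the mean unconverted share of CHG and CHH cytosines (horizontal axis, %) in 3 windows of the 5' part of 18S. Each point is a window in 1 library, with colour for the group and shape for the window. Windows of days 7 and 14 lie between 67.5% and 89.1% methylation and those of control and day 3 between 39.8% and 54.7%. In the first window days 7 and 14 are at 1.01% unconverted or more, the others at 0.329% or less. Both kinds meet only between 1.79% and 1.99% in the middle window and between 0.444% and 0.489% in the last.

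The 3' part was not uniform. CHG and CHH cytosines with almost no unconverted reads in the controls, under 0.05%, cut it into 5 runs of CpG sites, called B to F from 5' to 3' here, with the 5' part as stretch A. The cut was chosen after the values were seen, and the runs are described with no test of their own. Of the 52 sites tested in the 3' part, edgeR called 26 higher and 3 lower at day 7, and 29 higher and 3 lower at day 14. All 26 and all 3 were called the same way at day 14. The shares called over the whole repeat were those given above, 22.3% and 24.9% higher, and 41.8% and 46.1% lower. Of the 52 sites, 12 had all 3 day 7 libraries above every control and 5 had them below, against 18.9% and 35.1% of all 851 sites. At day 14 the counts were 13 and 3, against 22% and 39.6%.

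**Figure D4:**
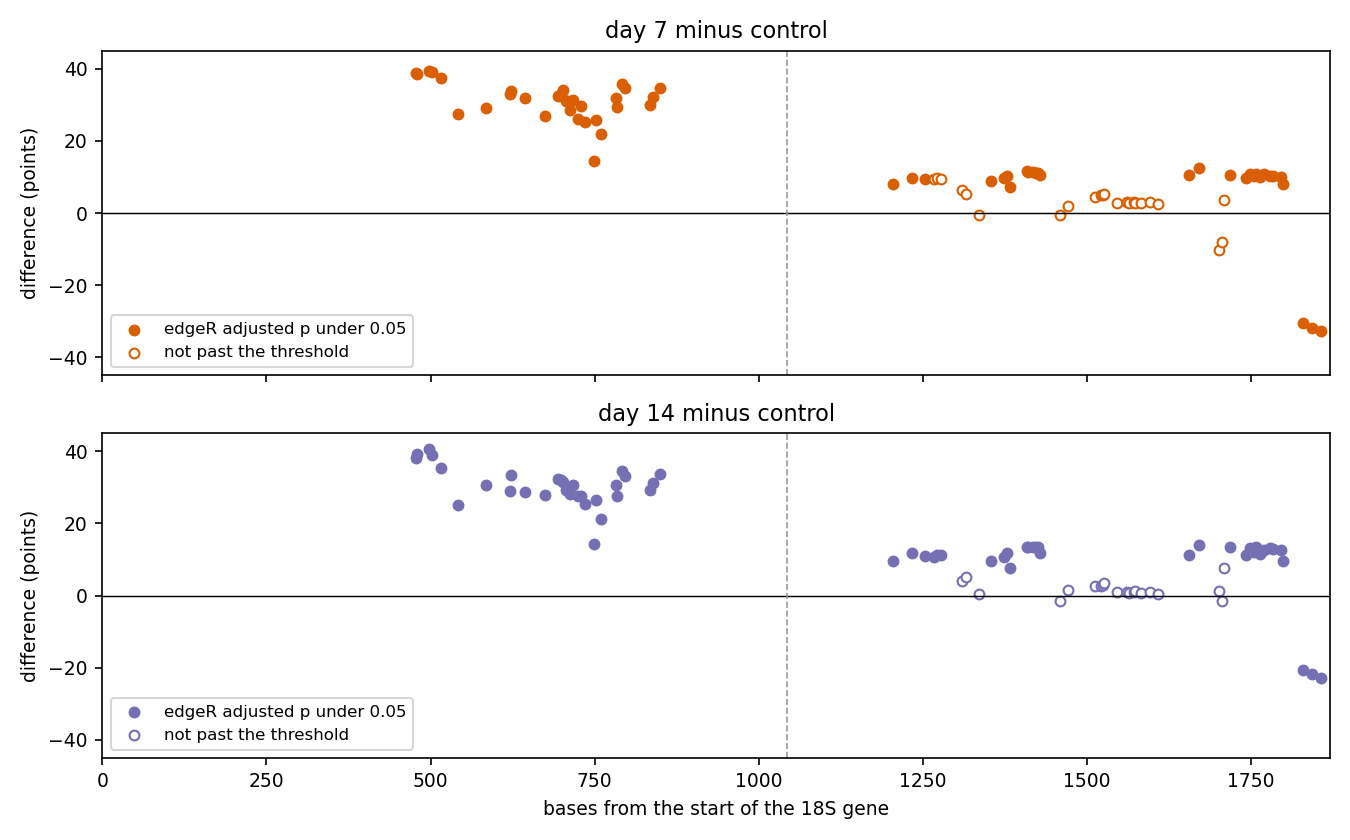
Difference in CpG methylation from control (percentage points, group means) at day 7 (top) and day 14 (bottom) for the 83 tested sites, against the distance in bases from the start of the 18S gene. Filled points passed an edgeR adjusted p of 0.05, and the dashed line is the limit between the parts. All 31 sites on the left are filled and above 14 points, and the last 3 on the right are filled and below zero, between -20.6 and -32.8 points.

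The 3 CpG sites at the very end of the gene were the only ones of 18S called lower than control with all 15 libraries. Stretch F, positions 5486, 5500 and 5514, averaged 57.5% to 61.5% in controls with a median of 59.7%, and 63.6%, 64.6% and 62.2% in the libraries of day 3. The libraries of day 7 read 26.1%, 34.9% and 22.9%, and those of day 14 read 33.2%, 37.3% and 43.4%. No library of days 7 or 14 overlapped a control, and at both days all 3 sites were called lower. Of the 851 sites tested in the repeat, 41.8% and 46.1% were called lower at days 7 and 14. All 3 libraries lay below every control at 35.1% and 39.6% of them. Position 5514 fell by 32.8 points at day 7 and by 22.9 points at day 14 (edgeR adjusted p = 2.34e-07 and 1.57e-05). Position 5500 fell by 31.9 and 21.8 points, and position 5486 by 30.5 and 20.6 points, on at least 17593 reads in every library. The 3 calls held with any 1 library left out, at both days.

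These 3 sites also held the only calls of 18S between days 14 and 7. They were 9.83 to 10.2 points higher at day 14 (edgeR adjusted p = 0.042 to 0.046), at 37.97% ± 5.12 against 27.98% ± 6.21 (SD, n = 3). When 1 library at a time was left out, 0 of the 3 were called in 12 of the 15 fits. They kept all 3 calls without replicate 2 of day 7 or replicate 1 of day 14, and 1 call without replicate 1 of the second control set. At day 3 all 3 sites lay above every control, by 3.47 to 3.99 points in the mean, where 4.58% of the 851 sites did so and 0.118% lay below every control (edgeR adjusted p = 0.945 for each, 0 calls). Unconverted shares at the 5 CHG and CHH cytosines among and after these sites, 5491 to 5523, were 0.514% to 0.806% in controls, up to 1.69% at day 7 and up to 1.42% at day 14.

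The low level went on past the end of the gene. At the 6 CpG sites within 30 bases of the end, in internal transcribed spacer 1, means ran from 48.1% to 63.0% in controls, from 16.4% to 30.1% at day 7 and from 22.7% to 37.6% at day 14. Cytosines further into the spacer held much higher unconverted shares, and within 100 bp of position 5514 the mean was 26.4% at day 7 against 8.48% in controls. Removing the local share, a step that lets no value become negative, therefore made the fall at this site 54.2 points rather than 32.8. Its stretch, F, averaged 27.98% at day 7 before the removal, while the 26.4% is the local share of position 5514 alone.

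Stretches C and E held every call for higher methylation in the 3' part. Stretch C, 19 sites from 4861 to 5086, averaged 39.7% ± 3.17 in controls (SD, n = 6). The day 7 libraries of stretch C read 51.7%, 52.8% and 41.4% and the day 14 libraries 43.6%, 45.9% and 60.1%, so replicate 3 of day 7 and replicate 1 of day 14 lay within the controls, whose highest was 45.4%. At day 7, 13 of the 19 sites were called higher, and at day 14, 16, against 22.3% and 24.9% of the 851 sites. Positions 5066, 5068 and 5075 rose by 11.6, 11.3 and 11.3 points at day 7 (edgeR adjusted p = 0.0269, 0.0293 and 0.0267), on at least 18401 reads in every library. At day 14 position 5066 was at 48.9%, 51.5% and 68.4%, against 39.7% to 49.6% in controls, a rise of 13.6 points (edgeR adjusted p = 0.0102). At no site of stretch C did all libraries of a day lie above every control.

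Stretch E, 16 sites from 5313 to 5456, averaged 46.5% ± 2.00 in controls (SD, n = 6). For stretch E the day 7 libraries read 57.4%, 57.0% and 47.5% and the day 14 libraries 49.3%, 54.4% and 67.4%, against at most 49.5% in a control. At each of both days 13 of the 16 sites were called higher, against 22.3% and 24.9% of the 851 sites. All 3 libraries lay above every control at 10 sites at day 7 and 13 at day 14, against 18.9% and 22%. Position 5328 rose by 12.6 points at day 7, with libraries at 51.2%, 52.9% and 42.1%, and by 14.1 points at day 14, with libraries at 44.9%, 49.0% and 57.1%, while its controls lay between 32.7% and 40.3% (edgeR adjusted p = 0.00679 and 0.00386), on at least 257 reads. Position 5414 rose by 13.5 points at day 14 (edgeR adjusted p = 0.00618), to 49.2%, 51.6% and 68.7% from 43.0% ± 2.41 in controls.

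The number of calls in stretches C and E changed with single libraries. With 1 library left out, 0 to 17 sites of stretch C and 2 to 13 of stretch E were called higher at day 7. At day 14 it was 0 to 16 in stretch C and 7 to 16 in stretch E. Without replicate 1 or without replicate 2 of day 7, 2 sites of the 3' part were called higher at day 7 in place of 26. Without replicate 3 of the first control set it was 12, and without replicate 2 of that set 14. Without replicate 3 of day 14, 7 sites were called higher at day 14 in place of 29, none of them in stretch C. That library had the highest methylation of its group in both parts, and also the highest unconverted share in the 3' part, 0.923%, against at most 0.565% in a control.

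**Figure D5:**
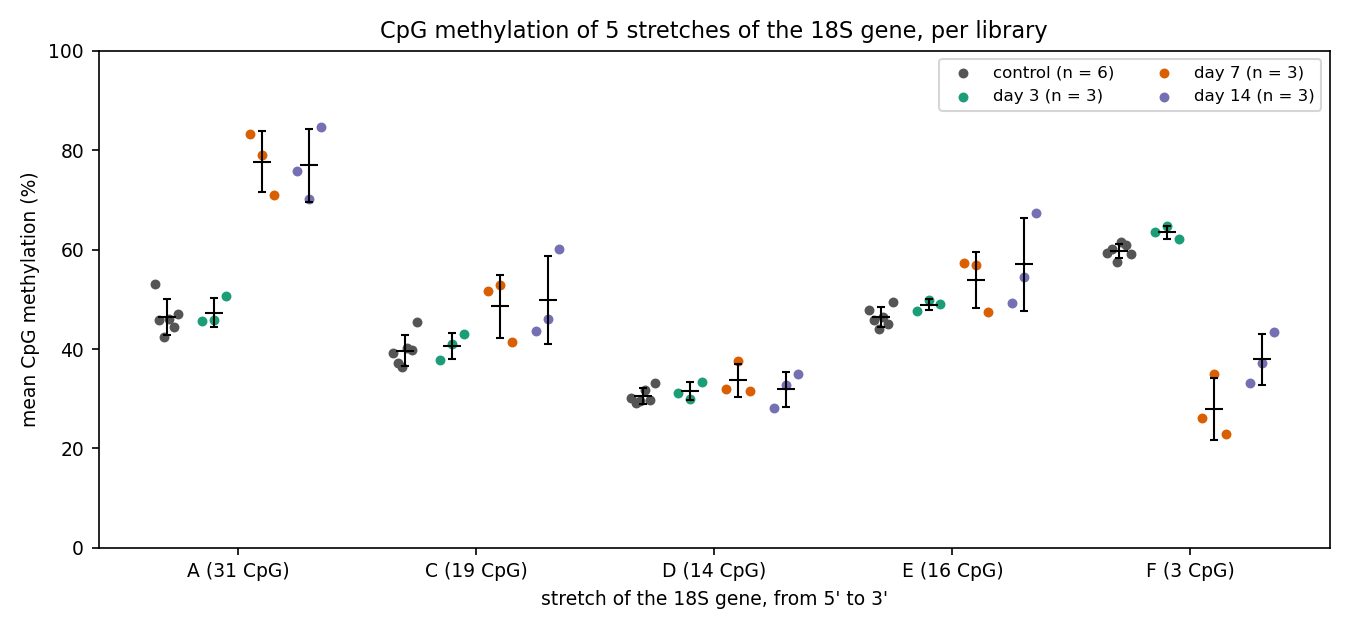
Mean CpG methylation (%) of stretches A and C to F of the 18S gene, ordered from 5' to 3'. Each point is 1 library, and the bars give mean and SD of control (n = 6) and days 3, 7 and 14 (n = 3 each). Days 7 and 14 lie apart from control above it in stretch A and below it in stretch F, and overlap it in stretches C, D and E.

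Stretch D lay between C and E and had no calls. Its 14 sites from 5116 to 5265 averaged 30.6% ± 1.56 in controls (SD, n = 6). The day 7 libraries read 31.9%, 37.6% and 31.6%, and the day 14 libraries 28.04%, 32.8% and 34.9%. Controls reached 33.1%, so 1 library of day 7 and 1 of day 14 lay above them and 1 of day 14 lay below all of them. By edgeR 0 of 14 sites passed at either day (1 at an unadjusted p under 0.05 at day 7 and 0 at day 14), on at least 36253 reads in every library. The median differences were 2.94 and 1.00 points. The difference between stretch D and its neighbours was not tested.

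A few CpG sites stood far above their neighbours, and their lowest read depths were below those of most sites of the 3' part. Position 5363 had the highest control mean of the 3' part, 91.1% ± 0.865 (SD, n = 6), and positions 4993 and 5359, chosen after their values were seen, had 90.2% ± 1.75 and 82.2% ± 2.07. Their lowest depths were 14542, 5521 and 2999 reads. Position 5328, with a lowest depth of 257 reads, did not stand out in this way. Position 5363 was at 87.2%, 87.9% and 74.1% in the libraries of day 7, all below the controls, and at 78.0%, 93.9% and 96.6% at day 14, on both sides of them. Its day 7 difference of -8.04 points was not called (edgeR adjusted p = 0.0723). Position 5359 was at 77.1%, 75.8% and 63.0% at day 7, also below every control, a difference of -10.3 points that was not called (edgeR adjusted p = 0.109). Without replicate 1 of day 14, edgeR called 2 sites of stretch E lower at day 7, and without replicate 3 of day 14 it called 1. At day 14 it showed the same split as 5363, with 66.3%, 90.4% and 93.6%. Position 4993 differed from control by -0.67 points at day 7 and 0.40 points at day 14, while its neighbours in stretch C differed by 5.26 to 11.6 points at day 7.

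The first CpG member of the 3' part was nearly unmethylated on few reads. Position 4819, alone in stretch B, held 10 to 61 reads in the libraries that reached the minimum. It read 0% to 7.69% in 4 controls, 0%, 4.92% and 0% on day 3, 13.3%, 0% and 0% on day 7, and 15.4%, 0% and 7.14% on day 14. Replicates 1 and 2 of the second control set had under 10 reads there, so the site was not among the 851 tested. When sites read in at least 2 libraries of each group were fitted, edgeR made no call there in any of the 4 comparisons.

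Conversion in the 3' part stayed closer to the controls than in the 5' part. Over its 126 CHG and CHH cytosines, controls averaged 0.434% ± 0.0875 unconverted (SD, n = 6). The exposed groups averaged 0.452% ± 0.0622, 0.762% ± 0.141 and 0.744% ± 0.171 on days 3, 7 and 14 (SD, n = 3). It was higher by 0.328 points at day 7 and by 0.310 points at day 14 (two-sided exact permutation p = 0.0238, the smallest possible, and 0.0357 after adjustment over 6 comparisons). Position 5220, a CHG cytosine, had the highest share at day 7, 8.38% ± 0.581 against 5.19% ± 0.364 in controls, and position 5362, next to the highly methylated site 5363, was at 6.34% ± 3.34 against 4.13% ± 0.672. All 6 libraries of days 7 and 14, at 0.583% or more, lay above every control, at 0.565% or less. At day 7, 26 of the 126 cytosines were above 1%, 5 above 2% and 4 above 5%, against 8, 4 and 1 in controls. Averaged over the 5' part, no control or day 3 library had as high an unconverted share as the libraries of days 7 and 14. Within single windows, only libraries of day 14 overlapped controls or day 3, and only in the middle and last windows. Those of day 7 lay above them in every window. In the middle window replicates 1 and 2 of day 14 held 1.92% and 1.79% unconverted with 75.4% and 70.9% CpG methylation. A control with 1.99% unconverted and a day 3 library with 1.97% were methylated there at 47.9% and 47.4%. Beyond these values and the removal of the local share, the part of incomplete conversion in the differences was not tested.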

How the data were processed

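Bisulfite amplicon libraries of 1 human lymphoblastoid cell line were used, 6 control and 9 exposed. Per the submitters' processing notes, Trim Galore, BSMAP 2.90, SAMtools 1.3.1 and methylKit were used. The builds named there are hg19 and GRCh37, while the positions lie on the GenBank ribosomal DNA sequence, and the role of each tool is not given in the sources used here. The deposited files give the count of C and of T reads at each cytosine, and the methylated fraction, which the authors formed from the C and T counts. The counts were used as deposited, and the fraction was recomputed from them as percent. The lowest listed depth was 10 reads, but 994 of 44176 rows had fewer than 10 C or T reads and were left out of the member rule.

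The quasi-likelihood test of edgeR 4.0.16, in R 4.3.3, was run on methylated and unmethylated counts of 851 CpG sites, those with 10 or more reads in each of the 15 libraries. The model held a term per library and, per group, a methylation term. Benjamini-Hochberg adjustment covered all 851 sites, with calls below 0.05. Of the 84 CpG members 83 were tested. For 8 parts of the repeat, limma 3.58.1 compared mean percent methylation between groups, with p-values adjusted over these parts. Other part boundaries than those of 18S come from the published layout of the sequence and were not checked. For the gap between parts and the unconverted shares, all 84 assignments of 6 and 3 libraries were enumerated in exact two-sided permutation tests. Both fits were tested on simulated data with known changes, with sites and parts drawn independently. Real sites share fragments, so these runs give no error rate for the data used here.

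Alternatives were other coverage minimums, summed reads, limma on log2 ratios with 0.5 reads added, the local unconverted share removed, CHG or CHH alone, a fit with replicate numbers, each control set alone and each library left out. A limma fit on percent was added after seeing the data. The members, the lists and the site rule were chosen with earlier results of these data known. Named are, for each part and day, the 4 called sites that rose most and the 4 that fell most (with all exposed libraries on 1 side of the control mean), or the 2 sites of lowest p where none was called, as well as the sites of highest and lowest control mean, the sites next to the limit between the parts and the 2 non-CpG cytosines with the highest share at day 7. The labels speak of 2 biological replicates but number 3, and 12 libraries were combined in a sequencing mix, so more than 1 mix was needed and which libraries shared one is not given. No sequence is printed, because no sequence of the repeat was used here.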

Additional observations from a re-analysis of the deposited data

Results flagged for a closer look

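The change of the 5' part differed between days. It was 30.4 points higher at day 7 than at day 3 (limma adjusted p = 8.04e-08), and 29.6 points higher at day 14 than at day 3 (limma adjusted p = 2.49e-07), and in both comparisons all 3 later libraries lay above all 3 libraries of day 3. In the 3' part 3 CpG sites, all in stretch F, differed between days 14 and 7.

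Among the 39 control groups examined for a value far from the others, 6 had one, where chance gives about 1 in 20. Position 4278 was at 40.6% in replicate 1 of the first control set, against 32.5% to 35.1% in the other 5 controls. Position 4406 was at 71.8% in replicate 2 of the second set, against 80.6% to 84.2%. Positions 5066, 5068 and 5075 were at 49.6%, 48.9% and 47.2% in replicate 3 of the second set, against at most 42.8%, 42.0% and 40.6% in the others. These 3 sites are neighbours read on the same fragments. The unconverted share around position 4819 was 0.336% in replicate 2 of the first set, against 0.114% to 0.191%.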

How the results depend on the processing

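The rise of the 5' part kept its direction under all alternatives run. Without the fits that left out 1 library, it was 30.6 to 33.8 points at day 7 and 29.8 to 32.9 at day 14. With 1 library left out it was 28.5 to 34.6 and 26.6 to 33.8 points. The rise of the 5' part missed the threshold in the exact test (31.3 and 30.5 points, adjusted p = 0.0714), whose smallest p limits it. At 100 reads, 18 of its sites were tested and 18 called at each day. The 3' part passed at day 7 with summed reads (6.21 points, limma adjusted p = 0.0444) and at day 14 at 100 reads (6.08, limma adjusted p = 0.0428). Leaving out 1 library moved it from 2.43 to 7.05 points at day 7 and from 1.89 to 8.68 at day 14, and its calls from 5 to 35, from 10 to 35 and, between days 14 and 7, from 0 to 5 (0 at 100 reads, 0 by limma on the log2 ratio and 1 on percent). The cause was not tested. Leaving out 1 library also ended the exact calls of the gap (25.1 to 28.3 points at day 7, 22.3 to 26.9 at day 14) and of the unconverted shares (5' part 1.37 to 2.18 and 0.926 to 2.43 points, 3' part 0.282 to 0.409 and 0.221 to 0.391), since fewer assignments are left. With CHH alone the 5' share at day 14 missed (1.73 points, exact adjusted p = 0.0714).

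The replicate numbers did not pair the libraries: 4 of 27 same-numbered pairs correlated above 0.1 (median r = -0.0159, other pairs 0.00862). With the replicate block the exact tests cannot pass (gap 27.0 and 24.6 points, 5' share 1.82 and 1.81, 3' share 0.328 and 0.310, adjusted p = 0.111), 0 sites of the 3' part were called between days 14 and 7 and 21 higher at day 7, and no other result crossed its threshold. The 26 comparisons of named sites gave 544 values, of which 534 kept their call and 10 lost it. All 10 were at 5066, 5068 and 5075 with 1 library left out.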
